A study of Bos taurus with 48 samples.

Results

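Circulating leukocytes of 6 weaned calves were compared between d 0, before weaning and housing, and d 2 after it. The comparison was made up of the 12 libraries that the labels give to calves 1758, 1762, 1769, 1770, 1773 and 1809 on these days, out of 48 libraries in the series, and each d 2 library was set against the d 0 library of the same calf. The other libraries come from the same calves on d 1 and 7 and from 6 control calves that stayed with their dams when housed. All calves are labelled as leukocyte donors of Continental breed at the calf stage, and the study's methods describe them as single-suckled, intact male Simmental calves that had been vaccinated against 2 respiratory viruses before the experiment. On d 0, blood was taken at the end of the grazing period. The weaned calves were then removed abruptly from their dams, brought indoors and penned with other weaned calves, so that in this comparison weaning, housing, regrouping and the passage of time cannot be told apart. RNA came from all white cells left after lysis of the red cells, and each library is 1 calf on 1 day.

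Weaning is a psychological, nutritional and social stressor of young ruminants. Stress hormones, catecholamines through adrenergic receptors and cortisol through its nuclear receptor, act on leukocytes and change both what these cells transcribe and which of them circulate. Immediate early genes such as FOS and FOSB are transcribed within minutes of a signal and encode subunits of the AP-1 transcription factor.

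Total counts were 2605496 to 4256011 per library. Expression is given in CPM, the count relative to the library total after scaling by its TMM factor. The detection limit of 3 counts, which covers only the error of counting, was 0.683 to 1.29 CPM. Calves of the same day were distinct libraries: for the 30 pairs, chi-square per degree of freedom was 3.08 to 46.6, where sampling of reads alone gives 1. The d 2 libraries of calves 1758 and 1762 stood apart. Across 10251 genes with a mean above 5 CPM, the log2 change from d 0 to d 2 had an SD of 1.02 in calf 1758 and 0.57 in calf 1762, against 0.28 to 0.41 in the other 4 calves, and 30.2% of the genes changed more than 2-fold in calf 1758, against 0.693% in calf 1770. In calf 1758 the 1000 most abundant genes took 41.2% of the counts on d 0 and 36.7% on d 2, whereas in calf 1762 they took 41.1% and 44.8%. A set of 60 genes that differ strongly between calves, chosen from d 0 and d 1, placed each of the 6 libraries of d 2 with its own calf (correlation of 0.741 to 0.978 with that calf), so the calf labels were kept. Over the 10251 genes, however, each library was also taken as its deviation from the mean of its day. By this measure, the d 2 libraries of calves 1758, 1762 and 1773 correlated better with another calf on d 0 than with their own. The share of aligned reads left after removal of duplicates also moved furthest between days in calves 1758 and 1762, up in the former and down in the latter. Values without these 2 calves are given beside the results that rest on them.

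**Figure D1:**
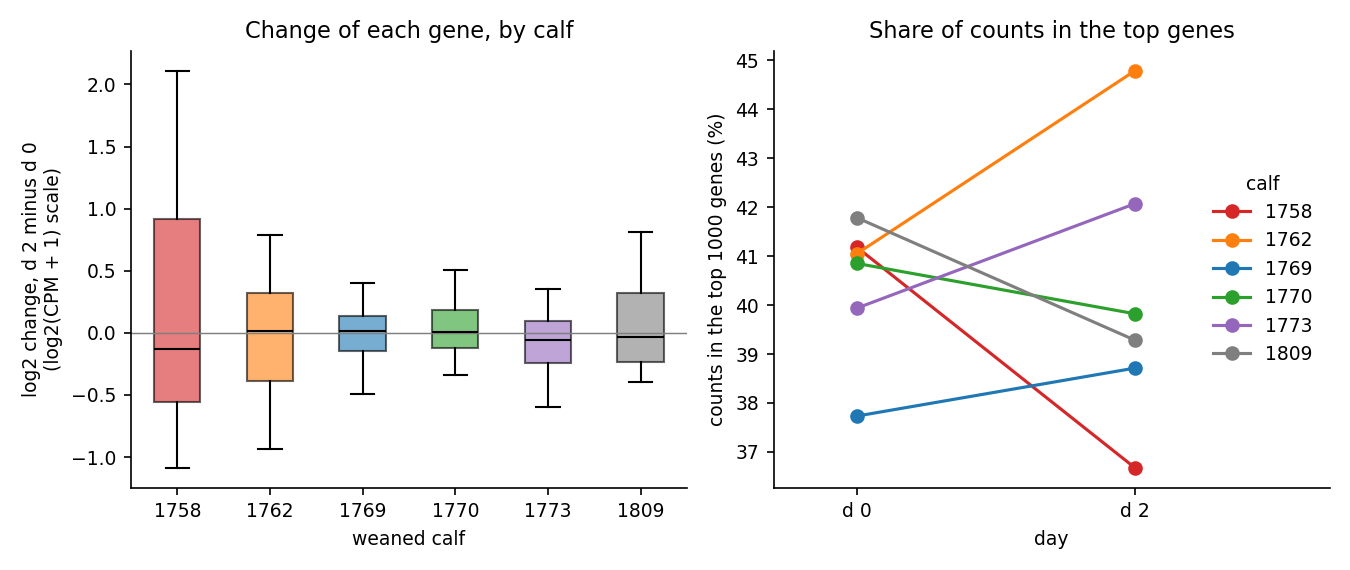
Left, log2 change of log2(CPM + 1) from d 0 to d 2 in each weaned calf across 10251 genes (box, middle 50% of genes with the median; whiskers, 5th to 95th percentile). Right, share of counts in the 1000 most abundant genes on d 0 and d 2 in the same calves (the axis does not start at 0). The box of calf 1758 is the widest, and the shares of calves 1758 and 1762 moved furthest, to 36.7% and 44.8%.

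No gene passed the test. Of 13984 genes with at least 10 counts over the 12 libraries, edgeR's quasi-likelihood F-test with calf as a block called 0 (0%). A gene was called when it differed at least 2-fold with an adjusted p (Benjamini-Hochberg) under 0.05, and the smallest adjusted p was 0.96. An unadjusted p under 0.05 was found for 336 genes (2.4%), 157 higher (1.12%) and 179 lower (1.28%) on d 2. With RLE size factors in place of TMM the split was 206 higher and 136 lower. The DESeq2 Wald test called 1 gene, ENSBTAG00000014835, lower on d 2 (adjusted p = 0.0475), and had 227 at an unadjusted p under 0.05. The exact test without a block called 62 with a common dispersion and 0 with tagwise dispersions, with 1097 and 331 at an unadjusted p under 0.05. The split then leaned to higher genes, with 43 higher and 19 lower among the 62 and 937 and 160 among the 1097. The F-test without a block had 194 higher and 101 lower at an unadjusted p under 0.05. Of the 157 genes that were higher on d 2, 79 (50.3%) had their highest expression of all 12 libraries in calf 1758 on d 2 and 48 (30.6%) in calf 1762 on d 2. Over all genes tested these shares were 32.8% and 15.1%. As genes picked for being higher on d 2 tend to peak on that day, the shares are a description and no test.

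The gene symbols used here come from human orthologs that the study paired with 643 bovine genes, all of them drawn from the study's own lists of changed genes in this series, so that the named genes are no independent sample. Of the 591 genes with a symbol that could be tested, 47 (7.95%) had an unadjusted p under 0.05, with 29 higher (4.91%) and 18 lower (3.05%). Of these 591 genes, 60.1% had their highest expression in calf 1758 on d 2. Unless stated otherwise, the adjusted p of every gene named below was at least 0.96 in the fit over 6 calves.

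Genes that were higher on d 2 in 6 of 6 calves were led by both immediate early genes that could be identified, FOS and FOSB. Over all genes tested, 131 (0.937%) were higher on d 2 in every calf and 231 (1.65%) were lower. FOS (ENSBTAG00000004322) had 67.8, 74.5, 158, 95.8, 170 and 108 CPM on d 0 in calves 1758, 1762, 1769, 1770, 1773 and 1809, and 134, 78.4, 223, 209, 241 and 198 CPM on d 2. Calf 1762 hardly moved, and the ranges of the 2 days overlapped. On d 0 the mean was 112 ± 42.8 CPM and on d 2 it was 181 ± 61.8 CPM (SD, n = 6). The log2 change was 0.68 (SE 0.14). The exact two-sided sign-flip permutation test over the 6 calves gave p = 0.0312, which is the smallest that 64 sign patterns allow and which every gene with 1 direction in 6 of 6 calves reaches.

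FOSB (ENSBTAG00000008182) had 18.0 to 35.8 CPM on d 0, with a median of 25.9, and 40.1 to 77.1 CPM on d 2, with a median of 43.8. The lowest d 2 library lay above the highest d 0 library, so the days did not overlap. This was so for 4 of the 13984 genes tested in this direction (0.0286%) and for 4 in the other (0.0286%), and FOSB was the most abundant of the former. Its log2 change was 0.87 (SE 0.20). Calf 1773 was the highest on d 2, and leaving out single calves gave 0.74 to 1.01.

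AGPAT9 (ENSBTAG00000017592), which encodes an acyltransferase of triglyceride synthesis, had 14.5 to 29.7 CPM on d 0 (median 20.3) and 21.6 to 63.7 CPM on d 2 (median 32.3). A log2 change of 0.68 (SE 0.16) was fitted. The ranges overlapped, although each calf was higher on d 2 than on d 0, and calf 1762 had the largest value.

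RGS1 (ENSBTAG00000021672), a GTPase activator that shortens signalling from chemokine receptors, had 3.56 to 8.02 CPM on d 0 and 26, 25.4, 5.51, 8.13, 6.51 and 5.79 CPM on d 2 in calves 1758, 1762, 1769, 1770, 1773 and 1809. The log2 change of 0.95 (SE 0.34) was 0.36 (SE 0.26) without calves 1758 and 1762, the only calves above 10 CPM. Of 5 RGS genes tested, 4 were higher on d 2, as were 451 of the 591 genes with a symbol. RGS1 was the single one of the 5 with an unadjusted p under 0.05. RGS2, the most abundant after it, had a log2 change of 0.85 (SE 0.46), and 1.13 without calves 1758 and 1762.

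Next come 4 genes of the cell surface that were higher on d 2 in 5 or 6 calves. They were described with their values known and stand for no group of genes. KLRK1 (ENSBTAG00000004917), the activating NKG2D receptor of NK and cytotoxic T cells, had 3.27 to 11.6 CPM on d 0 (median 6.67) and 7.32 to 27.2 CPM on d 2 (median 11.1), and was higher in 6 of 6 calves. MICB (ENSBTAG00000010166), named for a human ligand of that receptor, had a median of 1.86 CPM on d 0 and 3.27 CPM on d 2 and was likewise higher in each calf, with calf 1809 highest on both days. KLRK1 had a log2 change of 0.88 (SE 0.36) and MICB of 0.76 (SE 0.30). Without calves 1758 and 1762 these were 0.48 and 0.56. GZMA, a granule protease of the same cells, had 11.2 ± 7.83 CPM (SD, n = 6) and 9.93 ± 6.31 CPM (SD, n = 6), higher on d 2 in 2 of 6 calves.

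CD200 (ENSBTAG00000033319), an inhibitory membrane ligand, had 0.273 to 2.37 CPM on d 0 and 1.25 to 5.67 CPM on d 2. It was close to the detection limit, with 27 counts over the d 0 and 72 over the d 2 libraries, and each calf was higher on d 2. Its log2 change was 1.29 (SE 0.45), and 1.15 without calves 1758 and 1762. CD80 (ENSBTAG00000018059), a co-stimulatory ligand of antigen-presenting cells, had 16.7 to 36.4 CPM on d 0 and 25 to 90.3 CPM on d 2, with the highest value in calf 1758 and a lower value on d 2 in calf 1769 only. Its log2 change was 0.69 (SE 0.25), and 0.43 (SE 0.17) without calves 1758 and 1762.

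**Figure D2:**
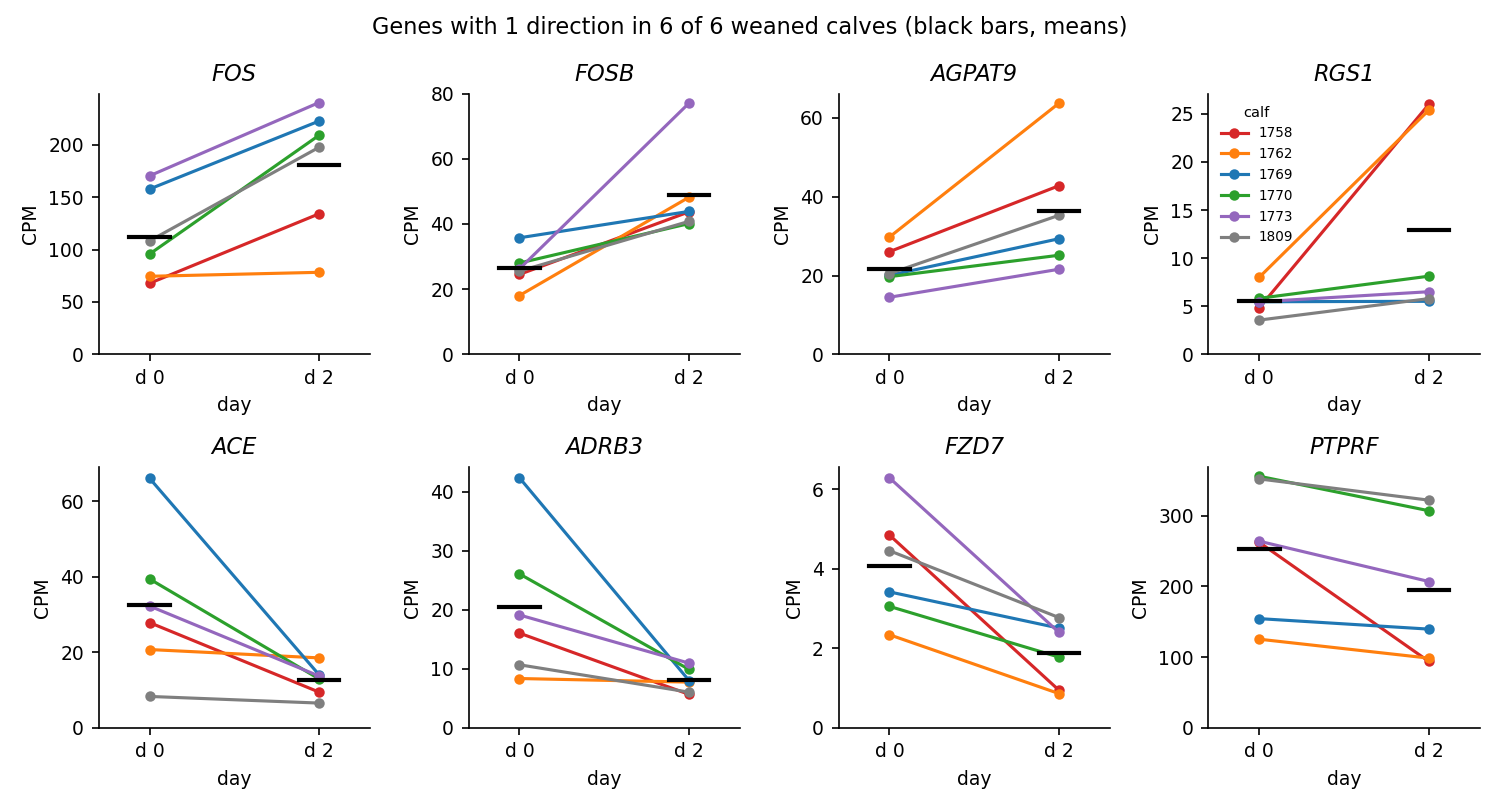
Expression (CPM, linear axes from 0) of 8 genes on d 0 and d 2, with 1 line for each of the 6 weaned calves and black bars for the means. FOS, FOSB, AGPAT9 and RGS1 were higher and ACE, ADRB3, FZD7 and PTPRF lower on d 2 in 6 of 6 calves, and FOSB alone among them has days that do not overlap.

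Lower on d 2 in 6 of 6 calves were ACE and ADRB3. ACE (ENSBTAG00000024950), the angiotensin-converting enzyme, which monocytes and macrophages carry, had 27.9, 20.7, 66.1, 39.4, 32.2 and 8.31 CPM on d 0 in calves 1758, 1762, 1769, 1770, 1773 and 1809, and 9.45, 18.5, 14, 13, 13.7 and 6.55 CPM on d 2. Calf 1769 was high on d 0, and all d 2 values lay below 20 CPM. Mean expression was 32.4 ± 19.6 CPM on d 0 and 12.5 ± 4.12 CPM on d 2 (SD, n = 6). The log2 change was -1.23 (SE 0.28), and -1.45 to -0.99 when single calves were left out.

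ADRB3 (ENSBTAG00000017981), a beta-adrenergic receptor, had 16.1, 8.36, 42.4, 26.1, 19.1 and 10.7 CPM on d 0 in the same order of calves, and 5.67, 7.75, 8.02, 9.9, 11 and 6.05 CPM on d 2. The calves with the highest d 0 values, 1769 and 1770, had the largest differences, and the ranges overlapped. The log2 change was -1.21 (SE 0.29), and -1.40 to -0.93 with each calf left out.

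ADRB1 (ENSBTAG00000001242), which encodes another beta-adrenergic receptor, had 3.79 ± 1.27 CPM on d 0 and 2.35 ± 0.639 CPM on d 2 (SD, n = 6) and was lower on d 2 in 5 of 6 calves. Its log2 change of -0.66 (SE 0.34) was -0.27 without calves 1758 and 1762. From a list of adrenergic receptors and cAMP signalling, 33.3% could be identified and 6 genes tested. Of these 6, 2 were higher and 4 lower, and ADRB3 was the only one with an unadjusted p under 0.05. Among the 591 genes with a symbol, 451 were higher and 140 lower, and 18 (3.05%) were lower at an unadjusted p under 0.05.

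Among the Wnt receptors, FZD7 (ENSBTAG00000002283) had 2.34 to 6.28 CPM on d 0 (median 3.93) and 0.861 to 2.77 CPM on d 2 (median 2.09), and was lower in 6 of 6 calves. Its ranges overlapped slightly, and the log2 change was -1.10 (SE 0.33), or -0.80 without calves 1758 and 1762. FZD3 (ENSBTAG00000035084) lay in the opposite direction in 5 of 6 calves, with a median of 2.40 CPM on d 0 and 4.90 CPM on d 2. The fitted log2 change was 0.90 (SE 0.42). FZD4 had 41.5 CPM in calf 1769 on d 0 and 2.34 to 9.14 CPM in all other libraries.

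PTPRF (ENSBTAG00000000253), a receptor tyrosine phosphatase, had 125 to 356 CPM on d 0 and 93.8 to 322 CPM on d 2. The spread between calves was far larger than the difference between days, which had the same direction in 6 of 6 calves and a log2 change of -0.44 (SE 0.17). Calf 1758 had the largest difference, and the change was -0.20 (SE 0.08) without calves 1758 and 1762. TAC3 (ENSBTAG00000021807), the precursor of the tachykinin neurokinin B, had a median of 8.69 CPM on d 0 and 3.79 CPM on d 2 and was lower in 5 of 6 calves, with a log2 change of -1.04 (SE 0.35). The transcription factor gene HES6 was lower in each calf, with 25 counts over the d 0 and 10 over the d 2 libraries.

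The fibrillar collagens COL1A1, COL1A2 and COL3A1 had lower values on d 2 in 5 of 6 calves, with log2 changes of -3.18 to -2.92. They are structural proteins that connective tissue cells secrete and that blood leukocytes are not known for. COL1A1 (ENSBTAG00000013103) had 5.45, 1.34, 112, 152, 21.3 and 183 CPM on d 0 in calves 1758, 1762, 1769, 1770, 1773 and 1809, and 0, 3.44, 2.26, 22.3, 17.1 and 2.52 CPM on d 2. The d 0 values were high in 3 calves, 1769, 1770 and 1809, and the ranges overlapped. The log2 change was -3.18 (SE 0.90). The exact sign-flip permutation test gave p = 0.0938, with calf 1762 higher on d 2 and calf 1773 only a little lower. Leaving out single calves gave -4.02 to -2.40.

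COL1A2 (ENSBTAG00000013472) had 2.73, 0, 68.8, 73.5, 10.9 and 90.5 CPM on d 0 and 0, 2.58, 1.5, 10.2, 6.85 and 1.76 CPM on d 2 in the same order. COL3A1 (ENSBTAG00000021466) had 1.82, 1.34, 64.7, 28.6, 10.9 and 58.8 CPM on d 0, and 0.252 to 10.6 CPM in 5 calves and 0 in calf 1758 on d 2. As for COL1A1, calves 1769, 1770 and 1809 were the highest on d 0. Their log2 changes were -3.12 (SE 0.90) and -2.92 (SE 0.93), again with p = 0.0938 in the exact permutation test. COL6A2 (ENSBTAG00000019269), a microfibrillar collagen, was lower in 6 of 6 calves at 0.606 to 6.53 CPM on d 0 and 0 to 4.79 CPM on d 2.

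From a list of 17 marker genes of fibroblasts and connective tissue, 10 could be identified. Of the 9 tested, 0 were higher and 9 lower on d 2, and 6 had an unadjusted p under 0.05. Of the 591 genes with a symbol, 451 were higher and 140 lower, and 18 (3.05%) were lower at an unadjusted p under 0.05. The median log2 change of the 9 was -2.15, against 0.33 over genes with a symbol and 0.02 over all genes tested. That of the 9 is the value of MMP2, which had 34 counts in all. All 9 have their symbol through the study's lists of genes changed in this series, so that the list is no independent evidence of a direction. Summed over the 10 genes, expression on d 0 was 11.2, 5.35, 255, 264, 45.9 and 347 CPM in calves 1758, 1762, 1769, 1770, 1773 and 1809, and on d 2 it was 0.236, 9.04, 5.51, 42.7, 37.0 and 9.32 CPM. The high sums were thus those of 3 calves on d 0. The members other than COL1A1, COL1A2, COL3A1 and COL6A2 had few counts. DCN had 24 counts over the d 0 and 2 over the d 2 libraries, BGN 21 and 6, MMP2 29 and 5, PDGFRB 9 and 2, COL5A2 12 and 3, and LUM, which could not be tested, 2 and 0. Of these, DCN and BGN had an unadjusted p under 0.05. In a bulk sample, fewer cells of a type and less RNA per cell cannot be told apart, and whether cells other than leukocytes entered the d 0 samples was not tested.

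**Figure D3:**
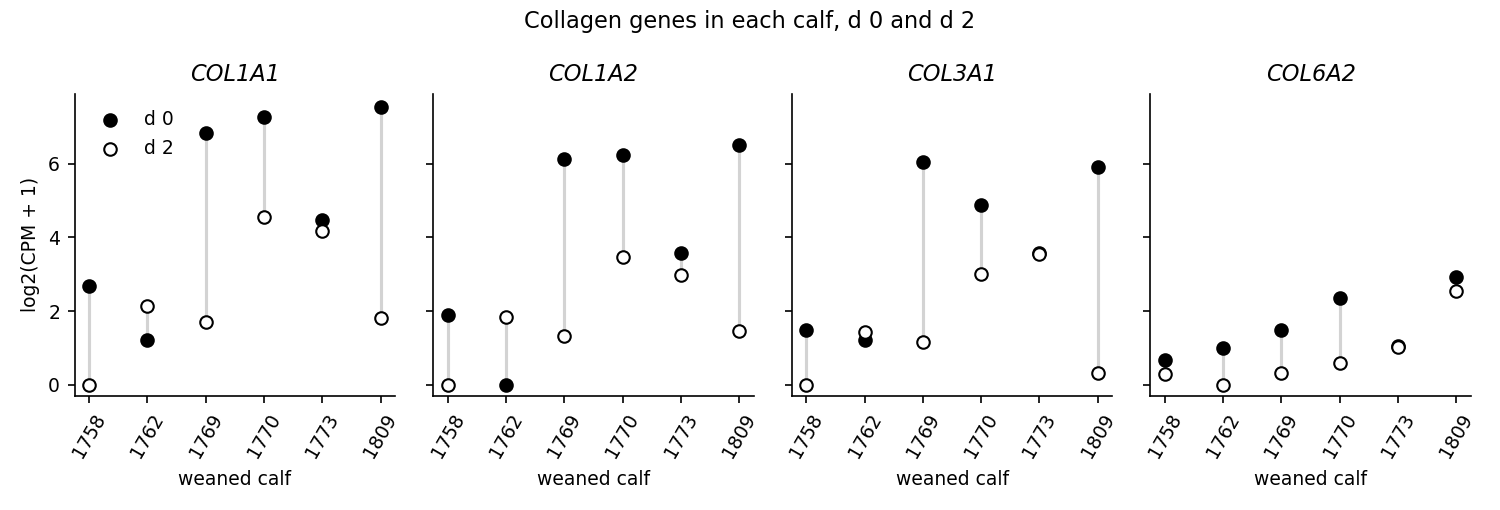
Expression of 4 collagen genes, as log2(CPM + 1), in each weaned calf on d 0 (filled) and d 2 (open). Calves 1769, 1770 and 1809 carry the high d 0 values of COL1A1, COL1A2 and COL3A1, while calves 1758 and 1762 are low on both days.

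Without calves 1758 and 1762, an exclusion chosen after the data were seen, 9 of 13516 genes (0.0666%) were called over the remaining 4 calves, 1 higher and 8 lower on d 2. At an unadjusted p under 0.05 there were 581 (4.3%), 323 higher (2.39%) and 258 lower (1.91%). The 2 called genes without a symbol, ENSBTAG00000014835 and ENSBTAG00000021516, were lower. The gene called as higher was THBS1 (ENSBTAG00000002006), which encodes the matricellular protein thrombospondin 1. It had 141, 58.2, 63.1, 80.5, 121 and 107 CPM on d 0 in calves 1758, 1762, 1769, 1770, 1773 and 1809, and 165, 17.2, 188, 186, 215 and 162 CPM on d 2. In calf 1762 alone it was lower on d 2. Its log2 change was 0.55 (SE 0.33) over 6 calves and 1.06 (SE 0.12) over the 4 (edgeR adjusted p = 0.000583, and 0.632 to 1 under the other 11 alternatives). The 12 alternatives given for single genes leave out the other filters, the robust fit and the exact tests.

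The called genes that were lower and have a symbol were COL1A2, COL1A1, ACE, ADRB3, COL3A1 and ALDH1A1. Over the 4 calves, the log2 change was -3.57 (SE 0.43) in COL1A2, -3.38 (SE 0.48) in COL1A1 and -3.03 (SE 0.56) in COL3A1, with edgeR adjusted p of 0.000616, 0.00232 and 0.0288. The excluded calves are those with the lowest collagen levels on d 0. ACE had a log2 change of -1.49 (SE 0.22, edgeR adjusted p = 0.00415) and ADRB3 of -1.41 (SE 0.24, edgeR adjusted p = 0.0134). Over the other 11 alternatives given for single genes, the adjusted p of these 5 genes was 0.127 or more.

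ALDH1A1 (ENSBTAG00000008103), a retinaldehyde dehydrogenase, rested on 1 library. Calf 1769 on d 0 held 132 of its 164 counts (80.5%), at 30.1 CPM, and all other libraries were between 0 and 2.36 CPM. Its log2 change over 6 calves was -1.69 (SE 0.98), and -3.44 over the 4 (edgeR adjusted p = 0.0319, and 0.146 to 1 under the other 11 alternatives). FOS reached an edgeR adjusted p of 0.00213 over the 4 calves with a log2 change of 0.75 (SE 0.10), less than 2-fold, and 0.0475 to 1 under the other 11 alternatives, the lowest in the DESeq2 fit.

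The cholesterol exporter ABCA1 (ENSBTAG00000020661) also reached a small adjusted p below the 2-fold limit. It had 44.8 to 72.4 CPM on d 0, and 399, 43.5, 95.5, 88.1, 77.1 and 125 CPM on d 2 in calves 1758, 1762, 1769, 1770, 1773 and 1809. Calf 1758 was the highest by far and calf 1762 the only one that was lower on d 2. The log2 change of 0.83 (SE 0.31) over 6 calves was 0.74 (SE 0.11, edgeR adjusted p = 0.00459) over the 4, and the adjusted p was 0.117 to 1 under the other 11 alternatives.

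The study assigned genes that it found changed in these calves to the pathways of cytokine signalling, haemostasis, transmembrane transport and GPCR signalling. These lists were chosen by the study on the same samples and are no independent evidence of a direction. Together they hold 56 different genes, of which 55 could be identified and 51 tested. On d 2, 39 were higher and 12 lower, with 9 and 6 at an unadjusted p under 0.05, and 2 were higher and 2 lower in 6 of 6 calves. Genes with a symbol leaned the same way as a whole, with 451 of 591 higher and 140 lower. Of these 591, 29 were higher and 18 lower at an unadjusted p under 0.05, and 14 and 10 in 6 of 6 calves. Over all 13984 genes tested, 7475 were higher and 6509 lower. The highest of the 12 libraries was calf 1758 on d 2 for 27 of the 51 listed genes (52.9%) and calf 1762 on d 2 for 10 (19.6%). Over genes with a symbol these shares were 60.1% and 7.78%, and over all genes tested 32.8% and 15.1%. At least 50% of the counts came from 1 library in 13 of the 51 genes, against 34 of the 591 with a symbol and 96 (0.686%) of all genes tested. For 9 of the 13 this library was calf 1758 on d 2. Some of the 13 had few counts, such as CFTR with 10 and SLC4A1 with 17. The median log2 change of the 51 genes was 0.85 over 6 calves and, for the 45 that could still be tested, 0.18 without calves 1758 and 1762. Over genes with a symbol these medians were 0.33 and 0.09. The sign turned in 7 of the 45, all of them higher on d 2 before, and over all genes tested it turned in 19.7%.

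**Figure D4:**
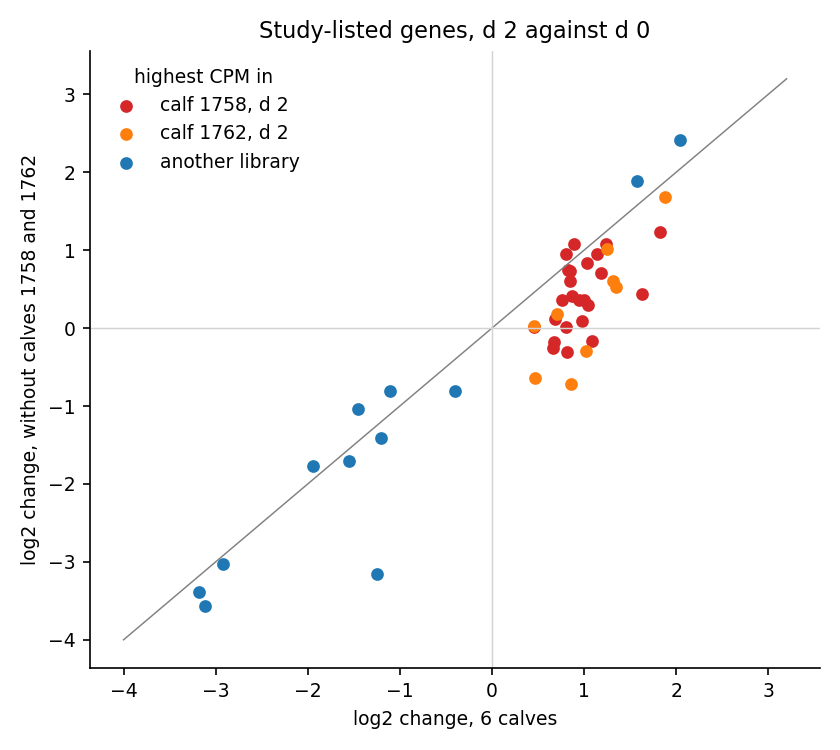
Log2 change from d 0 to d 2 of the study-listed genes over 6 calves (x axis) and without calves 1758 and 1762 (y axis), coloured by the library with the highest CPM; the line marks equal values. Of the 35 genes shown that were higher on d 2 over 6 calves, 31 lie below the line. COL1A1, COL1A2 and COL3A1 also lie below it, at -3.18, -3.12 and -2.92 over 6 calves. Without calves 1758 and 1762 they are at -3.38, -3.57 and -3.03.

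The cytokine signalling list had 15 genes, 11 higher and 4 lower, with a median log2 change of 0.80 that was 0.06 without calves 1758 and 1762. IL5RA (ENSBTAG00000000273), the receptor chain for the eosinophil cytokine IL-5, had 2.67 to 13.4 CPM on d 0, 61.5 CPM in calf 1758 on d 2 and 6.05 to 9.94 CPM in the other 5 calves. IL15RA (ENSBTAG00000006078), which presents IL-15 to NK and memory T cells, had 16.9 to 24.1 CPM on d 0, 149 CPM in calf 1762 on d 2 and 16.0 to 24.7 CPM in the others. CXCL10 (ENSBTAG00000001725), an interferon-induced chemokine, had 2.22 to 18.0 CPM on d 0, 84.4 CPM in calf 1762 on d 2 and 2.54 to 15.6 CPM in the others.

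In each of these 3 genes, 1 library of d 2 was several-fold above all others. The log2 change was 0.85 (SE 0.39) for IL5RA, 0.46 (SE 0.35) for IL15RA and 0.47 (SE 0.55) for CXCL10, and without calves 1758 and 1762 it was 0.74, 0.03 and -0.64. The neutrophil chemokine gene IL8 had 15 counts on d 0 and 48 on d 2, of which calf 1758 held 37. ALOX15, a lipoxygenase that eosinophils express strongly, had a median of 173 CPM on d 0 and 172 CPM on d 2.

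Of the 12 transport genes tested, 10 were higher and 2 lower, with a median log2 change of 0.86 that was 0.51 without calves 1758 and 1762, and 6 had at least 50% of their counts in 1 library. The noradrenaline transporter SLC6A2 (ENSBTAG00000003353) had 0.594 to 10.0 CPM on d 0, 77.5 CPM in calf 1762 on d 2 and 2.51 to 10.2 CPM in the others, and its log2 change of 1.31 (SE 0.51) was 0.61 without calves 1758 and 1762. The choline transporter SLC5A7 (ENSBTAG00000004352) had 51 of its 81 counts in calf 1758 on d 2, at 12.1 CPM, and was higher on d 2 in 3 of 6 calves, with a log2 change of 1.05 that was 0.29 without the same calves. The ammonium transporter RHCG (ENSBTAG00000005471) was lower on d 2 in 5 of 6 calves, with a median of 2.55 CPM on d 0 and 0.452 CPM on d 2. The fitted log2 change of -1.94 (SE 0.70) was -1.77 without calves 1758 and 1762.

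Of the 13 haemostasis genes, 9 were higher and 4 lower. The median log2 change was 0.69 over 6 calves and -0.07 without calves 1758 and 1762. The lower genes included COL1A1, COL1A2 and COL3A1. The ADP receptor P2RY12 (ENSBTAG00000015837) had 66.7 and 62.9 CPM in calves 1758 and 1762 on d 2 and 9.40 to 22.1 CPM in the other 10 libraries. Its log2 change of 0.69 (SE 0.32) was 0.12 without those calves. The phospholipase PLA2G4A (ENSBTAG00000013298), which releases arachidonic acid, had 31.0 CPM in calf 1758 on d 2, a log2 change of 1.00 (SE 0.40) over 6 calves and of 0.37 without calves 1758 and 1762. The cation channel TRPC6 (ENSBTAG00000011227) had 43.3 CPM in calf 1758 on d 2 and 2.54 to 8.20 CPM in all others, with a log2 change of 0.46 that was 0.02 without the same calves.

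Of the 27 GPCR signalling genes tested, 20 were higher and 7 lower, with a median log2 change of 0.86 that was 0.12 without calves 1758 and 1762. The neuromedin receptor NMUR2 (ENSBTAG00000011131) had 132 of its 174 counts (75.9%) in calf 1762 on d 2, at 56.8 CPM, and 0 to 4.68 CPM elsewhere, and a log2 change of 1.88 (SE 0.70) that was 0.68 without calf 1762 and 1.68 without calves 1758 and 1762. The vasodilator peptide gene ADM (ENSBTAG00000021048) had 161 of its 188 counts (85.6%) in calf 1769 on d 0, at 36.7 CPM. CALCRL, whose product forms the receptor for it, had 34.5 CPM in calf 1758 on d 2 and 3.63 to 11.3 CPM elsewhere, with a log2 change of 0.40 that was 0.12 without calves 1758 and 1762. HSPA6 (ENSBTAG00000039035), an inducible heat shock gene outside the study's lists, had 84.8 CPM in calf 1762 on d 2 and 1.89 to 8.74 CPM in the other libraries.

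Other lists of genes that respond to stress or infection could be identified only in part. The background for their counts is the 591 genes with a symbol, of which 451 were higher on d 2. The median log2 change of these 591 was 0.33, or 0.09 without calves 1758 and 1762. Of 12 inflammatory cytokine and chemokine genes, 10 were higher and 2 lower with 0 at an unadjusted p under 0.05, and the median log2 change was 0.32, or -0.12 without calves 1758 and 1762. Of 7 cell cycle genes, 6 were higher and 1 lower with 0 at an unadjusted p under 0.05. All 7 had their highest count in calf 1758 on d 2, the library with the highest total. Of all genes with a symbol, 60.1% had their highest expression there, and of all genes tested 32.8%. The median log2 change of the 7 genes was 0.32, or 0.16 without calves 1758 and 1762. Of the 3 purinergic genes 3 were higher, with 0 at an unadjusted p under 0.05 and a median log2 change of 0.69 that was 0.12 without those calves. No gene of the T cell, B cell, monocyte or glucocorticoid response lists, and at most 33.3% of those of the other blood cell lists, had a symbol, so that these counts were not used to compare the mix of blood cells between days. The 2 identified NK and cytotoxic genes, KLRK1 and GZMA, summed to 7.42 to 36.7 CPM on d 0 and 10.8 to 38.1 CPM on d 2, and 3 erythroid genes to 9.02 to 20.3 CPM and 4.96 to 33.5 CPM.

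Between d 1 and d 2 of the weaned calves, the F-test called 0 of 14135 genes (0%), with 83 (0.587%) at an unadjusted p under 0.05, 39 higher (0.276%) and 44 lower (0.311%). DESeq2 also called 0, with 13 at an unadjusted p under 0.05. Without calf 1758 the 83 became 1247, and without calves 1758 and 1762 they became 497 (3.64%), with 79 higher (0.579%) and 418 lower (3.06%) on d 2. Among genes with a symbol, the smallest unadjusted p was found for DCN, COL3A1, SPP1 and ACE in the lower direction and the genes with the smallest in the higher direction included SLC4A1, DHDH and IL15RA. The log2 difference was -2.46 for COL3A1 and -0.62 for ACE, while DCN and SPP1 had 2 and 1 counts over the d 2 libraries. SLC4A1 rested on 15 counts of calf 1770.

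The members that were higher or lower on d 2 can be set beside d 1 and d 7, which share the d 0 libraries. Relative to d 0, the log2 change of FOS was 0.60, 0.68 and 0.58 on the later days in order, and that of FOSB was 0.84, 0.87 and 0.47. ACE had -0.61, -1.23 and -0.69 on these days, and ADRB3 had -0.78, -1.21 and -0.70. COL1A1 had -0.95, -3.18 and -3.16. On d 1, the F-test called 2 of 14038 genes (0.0142%), HIC1 and ENSBTAG00000004950, with 3520 (25.1%) at an unadjusted p under 0.05, 1926 higher (13.7%) and 1594 lower (11.4%). On d 7, it called 0 of 14026 (0%), with 382 (2.72%) at an unadjusted p under 0.05, 217 higher (1.55%) and 165 lower (1.18%). The d 7 libraries of calves 1758 and 1770 each matched the other calf in the 60 genes named above, and without these calves the 382 became 1024. The d 7 values of single genes given here include these libraries.

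In control calves, housed with their dams, 0 of 13859 genes (0%) were called between d 0 and d 2 by the F-test and 1283 (9.26%) had an unadjusted p under 0.05, with 445 higher (3.21%) and 838 lower (6.05%), or 358 in all without control calf 1755, whose d 2 library did not match its calf in the 60 genes named above. That library correlated at -0.43 with its own calf and best, at 0.37, with weaned calf 1769. The values of single genes in control calves and in the interaction below include it. The treatment by day interaction tested whether the change to d 2 differed between treatments, over 24 libraries. It called 0 of 14733 genes (0%), with a smallest adjusted p of 0.505. At an unadjusted p under 0.05 there were 1061 (7.2%), 674 with a larger log2 change in weaned calves (4.57%) and 387 with a smaller one (2.63%). Leaving out single calves gave 409, without control calf 1755, to 2856, without calf 1762. DESeq2 also called 0, with 1019 at an unadjusted p under 0.05.

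ADRB3 had the smallest interaction p of the genes with a symbol. Its log2 change was -1.21 in weaned and 0.17 in control calves, a difference of -1.37 (SE 0.37, edgeR adjusted p = 0.505). COL1A1 had a log2 change of -3.18 in weaned and 0.57 in control calves, a difference of -3.73 (SE 1.32). COL1A2 had -3.12 and 0.61, a difference of -3.73 (SE 1.24). THBS1 had a log2 change of 0.55 in weaned and -0.85 in control calves, a difference of 1.43 (SE 0.54). FLT3, a growth factor receptor of precursor and dendritic cells, had 0.46 and -0.82, a difference of 1.32 (SE 0.40). None of these differences passed the test.

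For the immediate early genes, FOS had a log2 change of 0.68 in weaned and 0.49 in control calves, a difference of 0.22 (SE 0.23), and FOSB of 0.87 and 0.22, a difference of 0.68 (SE 0.32). ACE had -1.23 and -0.66, a difference of -0.55 (SE 0.41). The edgeR adjusted p of these 3 differences was 0.62, 0.505 and 0.524.

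**Figure D5:**
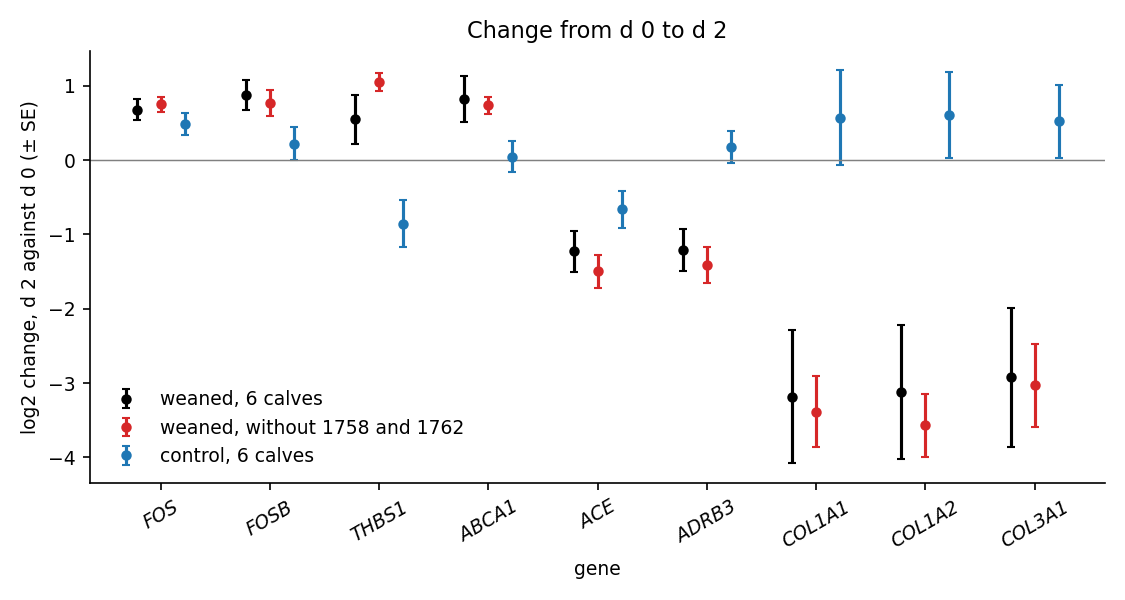
Log2 change from d 0 to d 2 with its SE (edgeR, calf as a block) for 9 genes in weaned calves, in weaned calves without 1758 and 1762, and in control calves. FOS has the same sign in all 3 fits and ACE too, while COL1A1 has -3.18 in weaned and 0.57 in control calves.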

How the data were processed

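Leukocyte mRNA of 12 weaned and control calves was sequenced by the authors as single 36 bp reads. Per the study's methods, reads were aligned to Btau4.0 with Bowtie 0.12.7 without mismatches, reads with several alignments were suppressed, all but 1 read at each position were removed, which limits the count of short, abundant genes, and HTSeq 0.4.6p2 counted reads on Ensembl genes. The authors deposited these raw counts per gene. Whether the strand was used is not given in the sources used here.

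Counts were tested with edgeR 4.0.16 in R 4.3.3 (TMM, at least 10 counts over the libraries compared, quasi-likelihood F-test, Benjamini-Hochberg adjustment), with calf as a block because both libraries come from the same animal. The study's methods state no block. Alternatives were DESeq2 1.42.0, RLE factors, other filters, a robust fit, exact tests, no block, leaving out each calf, only calves whose 2 libraries shared a flowcell, and a covariate for the share of reads left once duplicates were removed. Both come from the study's table of lanes, whose values are not printed. Leaving out calves 1758 and 1762 was added after the data were seen. The ranges of single genes over alternatives leave out the other filters, the robust fit and the exact tests. The paired and interaction fits were also run on simulated counts, drawn with a fixed dispersion and without outlying libraries. That run cannot show how the fits behave with libraries such as those of calves 1758 and 1762 on d 2. Exact sign-flip permutation tests used log2(CPM + 1).

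Across 10251 genes, how far a calf lay from the mean of its day correlated between d 0 and d 2 at -0.37 to 0.80. The correlation was above 0.1 in 4 of 6 pairs. The d 2 libraries of calves 1758, 1762 and 1773 correlated better with another calf on d 0 (0.64, 0.16 and 0.30) than with their own (-0.37, 0.03 and 0.15). The members, gene lists and tests were chosen with earlier results of these data known. Named genes are those that the study lists for weaned calves on d 2, the 8 with the smallest p in each direction that agree in 6 of 6 calves, the 3 most abundant members of each list and those with an unadjusted p under 0.05, 4 genes per direction of the interaction and of d 2 against d 1, and 5 with 50% or more of at least 30 counts in 1 library. Some named genes are not reported here. Which of the others are described was chosen after their values were seen, as were THBS1, ALDH1A1 and ADRB1. Figures were made in Python 3.11.15 with matplotlib 3.10.9.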

Additional observations from a re-analysis of the deposited data

Results flagged for a closer look

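Single libraries lay far from the other 5 of their day, by the ratio of their gap to the range of the group (Dixon's limit for 6 samples), in 16 of the 62 groups of 6 values formed by the 31 genes described in detail on d 0 and d 2. Chance flags about 1 group in 20, but the genes were chosen with their values known, some of them because 1 library held most of their counts, so that the number of such groups is a description and no test. Of these 16, 14 were on d 2, with 6 in calf 1758 and 6 in calf 1762.

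In calf 1758 on d 2 the highest values were 399 CPM for ABCA1, 90.3 CPM for CD80, 61.5 CPM for IL5RA, 43.3 CPM for TRPC6, 34.5 CPM for CALCRL and 12.1 CPM for SLC5A7. In calf 1762 on d 2 they were 149 CPM for IL15RA, 84.8 CPM for HSPA6, 84.4 CPM for CXCL10, 77.5 CPM for SLC6A2 and 56.8 CPM for NMUR2, and THBS1 was the lowest of its group there, at 17.2 CPM. The share of counts in the 1000 most abundant genes moved with these libraries, to 36.7% in calf 1758 and 44.8% in calf 1762 on d 2, and its part in the result was not tested.

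In other libraries, FOSB was highest in calf 1773 on d 2, at 77.1 CPM, and COL6A2 in calf 1809 on d 2, at 4.79 CPM. On d 0, calf 1769 had 36.7 CPM for ADM and 30.1 CPM for ALDH1A1.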

How the results depend on the processing

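The count of 0 called genes between d 0 and d 2 became 1 with DESeq2, 62 with the exact test and a common dispersion, and 9 without calves 1758 and 1762, and it stayed at 0 in the other alternatives, leaving out each calf included. The 336 genes with an unadjusted p under 0.05 became 148 in calves whose 2 libraries shared a flowcell, 739 with the share of reads kept as a covariate, 581 without calves 1758 and 1762, and 172 to 571 with each calf left out, lowest without calf 1770 and highest without calf 1762. Without the replicate block there were 295, and 0 were called. The cause of these differences was not tested.

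Of 31 genes described in detail, 5 turned direction in at least 1 of the 12 alternatives given for single genes. HSPA6, at 0.13, was -0.0348 with DESeq2, -0.54 without calves 1758 and 1762 and -0.70 to 0.75 with each calf left out. CXCL10, at 0.47, was -0.64 without calves 1758 and 1762 and -0.0782 to 0.94 with each calf left out. With each calf left out, TRPC6 was -0.0652 to 0.72, CALCRL -0.11 to 0.69 and ADM -2.30 to 0.67. Genes under 10 counts over the libraries compared, such as LUM, were not tested at this depth.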
